A study of Mus musculus with 6 samples.

Results

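Blood vessels and lymphatic vessels of colorectal tumors were followed through 10 marker genes of endothelium, the cell layer that lines both kinds of vessel. The genes were taken by name from the 54167 genes of the deposited table, all 10 were found once, and all 10 were among the 15117 genes reaching 1 TPM in 3 or more tumors (TPM, the transcript abundance per unit of length, given as a share of a total common to all tumors). They comprise 8 genes of blood endothelium, *Pecam1*, *Cdh5*, *Esam*, *Kdr*, *Flt1*, *Tek*, *Vwf* and *Plvap*, and 2 genes known as lymphatic markers, *Lyve1* and *Prox1*. RNA-seq was made from 6 tumors of C57BL/6J mice, 3 from Trp53fl/fl mice, which carry loxP sites around part of both *Trp53* alleles and no Cre, and 3 from VP mice, which carry the same alleles together with Pvillin-Cre. The villin promoter is active in intestinal epithelium, so endothelial cells are not the cells in which this Cre is driven. The methods describe male mice aged 8 weeks at the start, given 10 mg/kg azoxymethane (AOM, a carcinogen) and afterwards cycles of 2.5% dextran sulfate sodium (DSS, which injures and inflames the colon) of 7 days each, and tumors were taken at day 98. Neither group was free of AOM or DSS, and uninjured colon was not analysed here. Each tumor was homogenized whole, so that fewer endothelial cells and less RNA per endothelial cell cannot be told apart.

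Endothelial cells hold on to each other through VE-cadherin and PECAM1, and they grow and branch in response to VEGF, which binds the receptors VEGFR1 and VEGFR2. Angiopoietins act through the receptor TIE2 to stabilize or loosen vessels. Lymphatic endothelium is set apart by the transcription factor PROX1 and by the hyaluronan receptor LYVE1. Neither marker is limited to lymphatics, since some tissue macrophages carry LYVE1, and PROX1 is also made in enteroendocrine cells and in epithelium of intestinal tumors, where *Prox1* is known as a Wnt target.

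*Trp53* itself was at 99.30 to 147.45 TPM in Trp53fl/fl tumors and at 27.83 to 38.45 TPM in VP tumors. The log2 difference, here and below the VP mean minus the Trp53fl/fl mean of log2(TPM + 1), was -1.87 (limma adjusted p = 0.0207). Of the tested genes, 25 passed an adjusted p of 0.05 in limma, or 0.165% (8, 10, 9 and 6 genes without Trp53fl/fl replicate 1, Trp53fl/fl replicate 3, VP replicate 1 or VP replicate 2). None of the 10 endothelial genes was among them. At an unadjusted p under 0.05, 1 of the 10 was higher in VP tumors, *Vwf*, against 4.51% of all genes tested, and 1 was lower, *Prox1*, against 8.0%. The same genes were also those without overlap between the genotypes, with every VP tumor above every Trp53fl/fl tumor for 1 of 10 genes against 6.03% of all genes and every VP tumor below for 1 of 10 against 13.3%. With 10 genes these shares are near the background. The median log2 difference of the 10 genes was 0.15, with 8 positive and 2 negative values. The median of all genes tested was -0.07, with 5930 positive and 9187 negative values. These shares of all genes are also the background for the gene lists below.

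For 4 of the genes the reference held the sequence before the transcription start. These sequences show *Kdr*, *Flt1* and *Tek*, the receptor genes of blood endothelium, beside *Prox1*, the gene with the largest difference of the 10. Each line gives the 250 bases before the first listed start from RefSeq (build GRCm38.p6), 5′ to 3′ on the strand of the gene, and capitals mark GGAA or TTCC, the core of the sites of ETS transcription factors on either strand.
*Kdr* (chr5:75978456-75978705, minus strand): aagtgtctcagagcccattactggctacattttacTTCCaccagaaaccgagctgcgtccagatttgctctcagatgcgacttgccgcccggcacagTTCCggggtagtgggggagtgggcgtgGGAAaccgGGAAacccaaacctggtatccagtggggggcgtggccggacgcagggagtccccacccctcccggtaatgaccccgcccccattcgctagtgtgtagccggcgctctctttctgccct
*Flt1* (chr5:147726012-147726261, minus strand): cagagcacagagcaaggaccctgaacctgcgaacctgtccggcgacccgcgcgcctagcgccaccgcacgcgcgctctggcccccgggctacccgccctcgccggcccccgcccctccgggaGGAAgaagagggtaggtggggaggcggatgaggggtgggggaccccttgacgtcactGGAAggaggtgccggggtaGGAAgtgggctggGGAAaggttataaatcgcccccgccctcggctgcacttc
*Tek* (chr4:94739039-94739288, plus strand): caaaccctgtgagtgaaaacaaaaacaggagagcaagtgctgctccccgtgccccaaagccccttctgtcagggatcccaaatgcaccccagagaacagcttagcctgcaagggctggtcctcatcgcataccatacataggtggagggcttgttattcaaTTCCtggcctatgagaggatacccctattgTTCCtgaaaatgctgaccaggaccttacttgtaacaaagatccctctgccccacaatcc
*Prox1* (chr1:190170828-190171077, minus strand): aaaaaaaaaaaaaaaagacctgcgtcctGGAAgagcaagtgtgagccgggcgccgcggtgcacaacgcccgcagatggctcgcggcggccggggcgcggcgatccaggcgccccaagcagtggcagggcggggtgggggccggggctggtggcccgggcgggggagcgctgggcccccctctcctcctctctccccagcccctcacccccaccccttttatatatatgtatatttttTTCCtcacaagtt

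The windows of *Kdr* and *Flt1* held 4 ETS cores each, and those of *Tek* and *Prox1* held 2 each. ETS factors are known to bind many endothelial promoters, but so short a core is common, and 93.4% of the 32851 promoter windows of the same length held at least 1, with a median of 3. The TCF/LEF core, searched as CTTTG or CAAAG without overlap with the ETS core, had 2 matches in the window of *Tek* and none in those of *Kdr*, *Flt1* and *Prox1*, while 48.6% of all windows held it. The letters of a window do not show that a factor binds there.

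The levels of the 10 genes are described here in 5 tiers of mean TPM. The order was taken from the same 6 tumors in which it was then tested. *Prox1* had the highest mean over the 6 tumors, 66.7 ± 23.9 TPM (SD, n = 6), and *Plvap*, which encodes the protein of the diaphragms that span pores of capillary endothelium, followed at 58.8 ± 10.6 TPM. *Pecam1* and *Vwf* came next at 27.1 ± 2.39 and 26.8 ± 4.26 TPM, then *Esam* and *Cdh5* at 16.9 ± 1.63 and 16.7 ± 2.32 TPM (SD, n = 6 each). *Lyve1*, *Kdr* and *Flt1* lay together at 8.47 ± 2.53, 7.45 ± 1.20 and 7.0 ± 1.56 TPM, and *Tek* was lowest at 3.17 ± 0.297 TPM. Of the 9 pairs of neighbours in this order, 4 kept the same order in 6 of 6 tumors, *Plvap* over *Pecam1*, *Vwf* over *Esam*, *Cdh5* over *Lyve1* and *Flt1* over *Tek*. Each of these pairs had an exact paired permutation p of 0.03125, two-sided, the smallest that 6 pairs allow, and 0.0703 after Benjamini-Hochberg adjustment over the 9 pairs, above 0.05. In the other 5 pairs each gene was the higher one in 3 tumors (exact permutation p from 0.4375 to 0.84375), so these neighbours did not differ beyond their spread. *Prox1* was above *Plvap* in the 3 Trp53fl/fl tumors and below it in the 3 VP tumors.

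**Figure D1:**
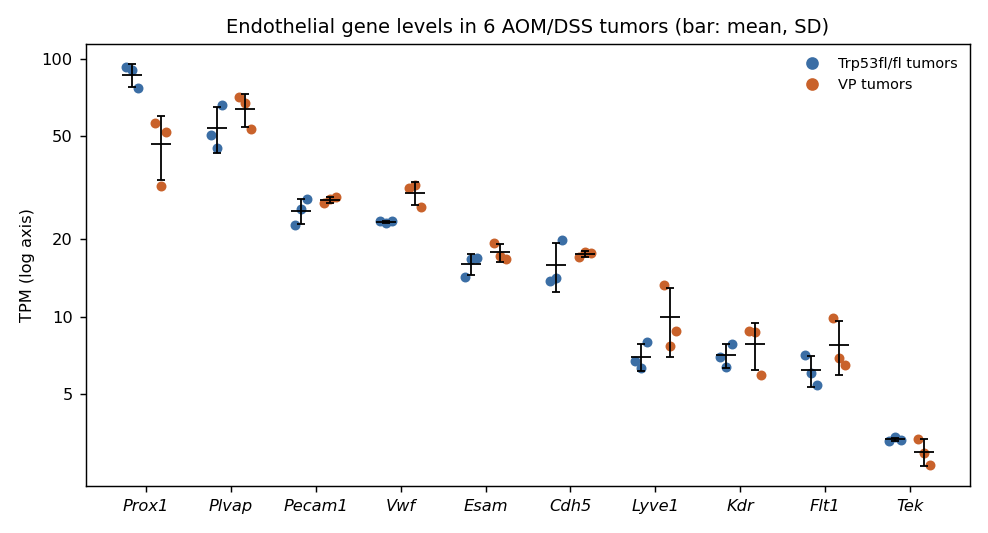
TPM of the 10 endothelial genes (log axis) in the 3 Trp53fl/fl tumors (blue) and the 3 VP tumors (orange), with genes ordered by their mean over all tumors; horizontal bars show means and error bars the SD. *Prox1* is separated between the genotypes with VP tumors below, *Vwf* with VP tumors above, and the other 8 genes overlap.

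*Cdh5* (ENSMUSG00000031871), which encodes VE-cadherin of the junctions between endothelial cells, was at 13.79, 14.10 and 19.78 TPM in Trp53fl/fl tumors and at 17.01, 17.87 and 17.59 TPM in VP tumors. The VP tumors were nearly equal and lay within the range of the Trp53fl/fl tumors, of which replicate 3 was the highest. The log2 difference was 0.15 (standard error 0.16, limma adjusted p = 0.706) and moved to 0.31 without Trp53fl/fl replicate 3 and to 0.062 without replicate 1. *Pecam1* (ENSMUSG00000020717), the adhesion molecule CD31, which platelets and leukocytes also carry, was at 22.74, 26.03 and 28.49 TPM against 27.66, 28.46 and 29.15 TPM. Only VP replicate 3 exceeded the highest Trp53fl/fl tumor. Its log2 difference of 0.14 had a 95% interval from -0.14 to 0.42 (limma adjusted p = 0.627), and was 0.059 without Trp53fl/fl replicate 1 and 0.22 without Trp53fl/fl replicate 3. *Esam* (ENSMUSG00000001946), an adhesion molecule of endothelial junctions and platelets, was at 14.25, 16.76 and 16.92 TPM against 19.37, 17.22 and 16.70 TPM, again with overlap, and had a log2 difference of 0.15 (adjusted p = 0.642, limma). That value was 0.070 without Trp53fl/fl replicate 1 and 0.085 without VP replicate 1. The 3 junction genes had differences within their replicate spread, and the upper limits of their 95% intervals were 0.42 to 0.52 on the log2 scale.

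The receptor genes were weakly expressed. *Kdr* (ENSMUSG00000062960), which encodes VEGFR2, the main signaling receptor for VEGF, was at 7.0, 6.39 and 7.86 TPM in Trp53fl/fl tumors and at 8.80, 8.73 and 5.94 TPM in VP tumors. VP replicates 1 and 2 were above every Trp53fl/fl tumor and VP replicate 3 below every one. The log2 difference was 0.11 (standard error 0.18, limma adjusted p = 0.810), and it ran from 0.028 without VP replicate 1 to 0.28 without VP replicate 3. *Flt1* (ENSMUSG00000029648), which encodes VEGFR1, a receptor that binds VEGF and limits its access to VEGFR2, was at 7.13, 6.03 and 5.46 TPM against 9.92, 6.92 and 6.52 TPM. VP replicate 1 was above all other tumors, and the others overlapped. The log2 difference of 0.27 (standard error 0.19, limma adjusted p = 0.565) was 0.11 without that tumor. *Tek* (ENSMUSG00000006386), which encodes TIE2, was at 3.31, 3.41 and 3.32 TPM against 3.37, 2.97 and 2.66 TPM. It was the only blood endothelial gene of the 8 with a negative value, a log2 difference of -0.12 (standard error 0.16, limma adjusted p = 0.756), which was -0.061 without VP replicate 3 and -0.19 without VP replicate 1.

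*Vwf* (ENSMUSG00000001930) encodes von Willebrand factor, which endothelial cells and platelets store and release to bind platelets to damaged vessel walls. It was at 23.53, 23.01 and 23.42 TPM in Trp53fl/fl tumors and at 31.60, 32.40 and 26.71 TPM in VP tumors. The Trp53fl/fl tumors were nearly equal, and each VP tumor lay above them. The VP mean was 1.30 times the Trp53fl/fl mean, a log2 difference of 0.36 (standard error 0.12, 95% interval 0.083 to 0.63) with an unadjusted p of 0.0176 and a limma adjusted p of 0.328. The unadjusted p was 0.0509, 0.0551 and 0.0653 without Trp53fl/fl replicate 1, VP replicate 1 and VP replicate 2, and the adjusted p lay between 0.270 and 0.670 over the 13 alternatives. *Plvap* (ENSMUSG00000034845) was at 50.74, 44.86 and 65.93 TPM against 71.02, 67.07 and 53.19 TPM. Both VP replicates 1 and 2 were above every Trp53fl/fl tumor, VP replicate 3 was not, and the log2 difference was 0.25 (standard error 0.18, limma adjusted p = 0.572). Without Trp53fl/fl replicate 2 it was 0.13, and without Trp53fl/fl replicate 3 it was 0.40.

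The 4 tested genes of platelets and megakaryocytes did not separate the genotypes. The 10 genes of the list summed to 60.09 to 65.87 TPM in Trp53fl/fl tumors and to 54.30 to 102.8 TPM in VP tumors. None of the 4 tested genes had an unadjusted limma p under 0.05. *Gp9*, a subunit of the platelet receptor for von Willebrand factor, was at 0 to 0.38 TPM in the 6 tumors. VP replicates 1 and 2, which had nearly equal *Vwf*, had the highest and the lowest platelet sum of the 6 tumors, 102.8 and 54.30 TPM. Most of both sums was 1 gene, *Pf4*, at 83.44 and 44.07 TPM, so the sums say little about the other platelet genes. Of these, *Gp1ba*, *Tubb1*, *Gp6*, *Gp5* and *Treml1* were, like *Gp9*, below 1 TPM in every tumor and not tested. The part of platelets in the values of *Vwf* was not tested.

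*Lyve1* (ENSMUSG00000030787) was at 6.71, 6.33 and 7.97 TPM in Trp53fl/fl tumors and at 13.31, 7.70 and 8.80 TPM in VP tumors. VP replicate 1 was far above the rest, and VP replicate 2 lay within the Trp53fl/fl range. The log2 difference of 0.42 (standard error 0.21, limma adjusted p = 0.448) was 0.21 without VP replicate 1 and 0.57 without VP replicate 2. *Mmrn1* and *Reln*, other genes of lymphatic endothelium, were likewise highest in VP replicate 1, at 6.56 and 5.61 TPM, against at most 3.30 and 3.88 TPM in the other tumors. In contrast *Ccl21a*, *Foxc2*, *Gja1* and *Stab1* of the same list were at their lowest in that tumor, as was the sum of the list (195 TPM). The macrophage list, whose cells can carry LYVE1, summed to 457 to 491 TPM in Trp53fl/fl tumors and to 476 to 587 TPM in VP tumors, with 1 of its 9 tested genes higher in VP tumors at an unadjusted limma p under 0.05 and none lower. That gene was *Cd68*, which encodes a lysosomal glycoprotein of macrophages (log2 difference 0.53, limma adjusted p = 0.270). VP replicate 1 had the lowest macrophage sum of the VP tumors, but the highest values of all 6 tumors for *Mrc1*, a mannose receptor gene of macrophages (14.01 TPM against at most 11.78 TPM), and for *Cd163*, a marker of resident macrophages (0.93 TPM against at most 0.20 TPM). *Adgre1* of the same list was instead lowest of all 6 tumors there, at 6.69 TPM against 11.27 TPM or more. *Folr2* had its lowest VP value there, 1.5 TPM. *Timd4*, another marker of resident macrophages, was at 0.35 TPM or less in every tumor and lowest in VP replicate 1, at 0.06 TPM. *Cd163* and *Timd4* stayed below 1 TPM in every tumor and were not tested. The part of macrophages in the values of *Lyve1* was not tested.

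*Prox1* (ENSMUSG00000010175) was at 92.94, 90.14 and 76.75 TPM in Trp53fl/fl tumors and at 56.44, 32.06 and 51.96 TPM in VP tumors. Every VP tumor was below every Trp53fl/fl tumor, and VP replicate 2 was the lowest. The VP mean of 46.8 ± 13.0 TPM was 0.541 times the Trp53fl/fl mean of 86.6 ± 8.65 TPM (SD, n = 3 each), a log2 difference of -0.91 (standard error 0.22, 95% interval -1.42 to -0.40). The unadjusted p was 0.00379 and ranked 215 among the 15117 genes, and the limma adjusted p was 0.266. The adjusted p stayed between 0.218 and 0.610 over the 13 alternatives, in which the log2 difference ran from -1.06 to -0.66.

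**Figure D2:**
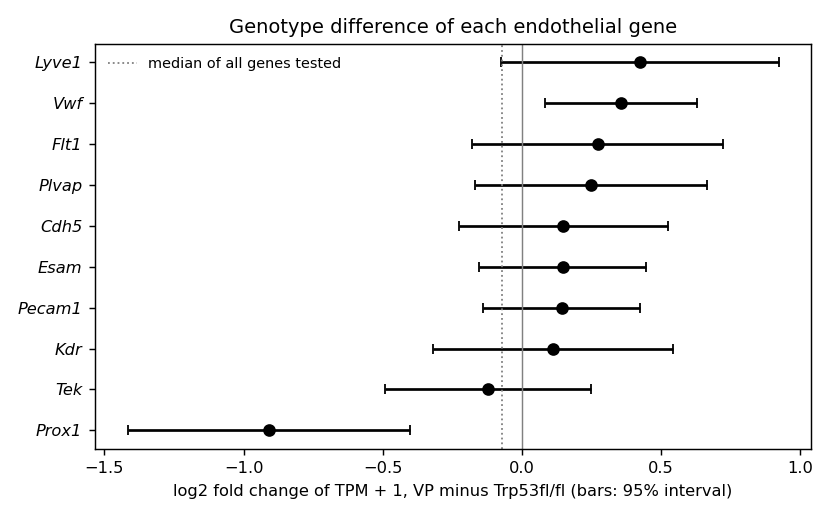
Difference in log2 of TPM + 1 for each endothelial gene, VP minus Trp53fl/fl (points, limma), with 95% intervals as bars. The solid line marks 0 and the dotted line the median of all genes tested, -0.07. The intervals of *Prox1* (-1.42 to -0.40) and *Vwf* (0.083 to 0.63) lie on one side of 0 before adjustment, and the other 8 span 0.

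*Prox1* was above most of the other lymphatic genes in level. Its lowest value, 32.06 TPM, was above the highest value of *Lyve1* (13.31 TPM), of *Mmrn1* (6.56 TPM) and of *Flt4*, which encodes the lymphatic VEGF receptor VEGFR3 (3.44 TPM), while *Ccl21a*, *Gja1*, *Stab1* and *Pdpn* of the lymphatic list reached 77.42, 49.12, 41.24 and 32.39 TPM. The ratio of *Prox1* to *Lyve1* TPM was 9.63 to 14.2 in Trp53fl/fl tumors and 4.16 to 5.90 in VP tumors, without overlap. This ratio was chosen after the values were seen and is given as a description. The enteroendocrine list, of cells in which *Prox1* is known, summed to 96.9 to 337 TPM in Trp53fl/fl tumors and to 322 to 563 TPM in VP tumors, with overlap. All 7 tested genes of that list had a positive log2 difference, 2 had an unadjusted limma p under 0.05 and none passed the adjustment. Most of the sum was *Pyy*, the gene of the gut hormone peptide YY and the only one of the 7 without overlap (log2 difference 1.54, limma adjusted p = 0.317). The 12 epithelial marker genes summed to 10628 to 10954 TPM in Trp53fl/fl tumors and to 12069 to 13063 TPM in VP tumors, with 3 of 12 higher at an unadjusted limma p under 0.05 and none past the adjustment. Of the 12 genes, 10 were positive and 2 negative. *Epcam*, *Cdh1* and *Krt18* had log2 differences of 0.0028, 0.024 and 0.0036, while *Cldn7*, *Cldn3*, *Vil1* and *Krt8* had 0.37, 0.27, 0.19 and 0.10. The 2 epithelial genes of largest difference without overlap were *Lgals4* and *Krt19*, a lectin and a keratin of the gut epithelium, with log2 differences of 0.47 and 0.39 (limma adjusted p = 0.292 and 0.346).

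A list of 8 Wnt targets of intestinal epithelium was chosen after the values of *Prox1* had been seen. Of its genes, 6 were lower and 2 higher in VP tumors, while of all genes tested 9187 of 15117 were lower. At an unadjusted limma p under 0.05, 3 of the 8 were lower, against 8.0% of all genes. None passed the adjustment, and the median log2 difference was -0.32. *Lgr5*, the stem cell receptor for R-spondins, was at 36.42, 32.61 and 39.91 TPM in Trp53fl/fl tumors and at 29.26, 25.28 and 15.08 TPM in VP tumors, without overlap (log2 difference -0.67, limma adjusted p = 0.344). *Znrf3*, which encodes a ubiquitin ligase that removes Wnt receptors, was at 21.19, 22.57 and 19.96 TPM against 16.03, 10.08 and 14.03 TPM (log2 difference -0.65, limma adjusted p = 0.289). *Axin2*, a scaffold protein gene induced by Wnt, was at 149.21 to 177.15 TPM against 116.52 to 138.29 TPM (log2 difference -0.36, limma adjusted p = 0.323). *Nkd1*, a feedback inhibitor of the pathway, overlapped between the genotypes and was lowest in VP replicate 2, at 144.51 TPM. *Prox1*, *Znrf3*, *Axin2* and *Rnf43* were lowest there too. In contrast *Lgr5* was lowest in VP replicate 3 and *Ascl2* in VP replicate 1, at 21.9 TPM. The highest VP values of *Sox9* and *Cd44* were in VP replicate 2, at 61.86 and 81.44 TPM. *Sox9* and *Cd44* had positive values, 0.061 and 0.25. The part of these genes, of epithelium or of enteroendocrine cells in the values of *Prox1* was not tested.

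The ratio of a TPM to that of *Cdh5* in the same tumor does not depend on the scaling to a common total. *Pecam1* was at 1.44 to 1.85 times the TPM of *Cdh5* in Trp53fl/fl tumors and at 1.59 to 1.66 times in VP tumors, and *Esam* at 0.855 to 1.19 and 0.949 to 1.14 times. *Plvap* was at 3.18 to 3.68 times *Cdh5* against 3.02 to 4.18 times, *Kdr* at 0.397 to 0.508 against 0.338 to 0.517 times, and *Vwf* at 1.18 to 1.71 against 1.52 to 1.86 times. All of these ranges overlapped, that of *Vwf* included. Relative to *Cdh5*, none of the 9 genes had every VP tumor above every Trp53fl/fl tumor, against 1.96% of all genes, and 1, *Prox1*, had every VP tumor below, against 11.6%. *Prox1* was at 3.88 to 6.74 times *Cdh5* in Trp53fl/fl tumors and at 1.79 to 3.32 times in VP tumors, a difference of -1.06 in the log2 ratio (TPM + 1). The exact permutation p was 0.1, the smallest possible, and 0.9 after adjustment over the 9 genes. For the other 8 genes the difference lay between -0.27 for *Tek* and 0.27 for *Lyve1*, with exact permutation p-values of 0.3 to 1. That of *Lyve1* was 0.044 without VP replicate 1, that of *Tek* -0.43 without Trp53fl/fl replicate 3 and that of *Vwf* 0.052 without Trp53fl/fl replicate 3.

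**Figure D3:**
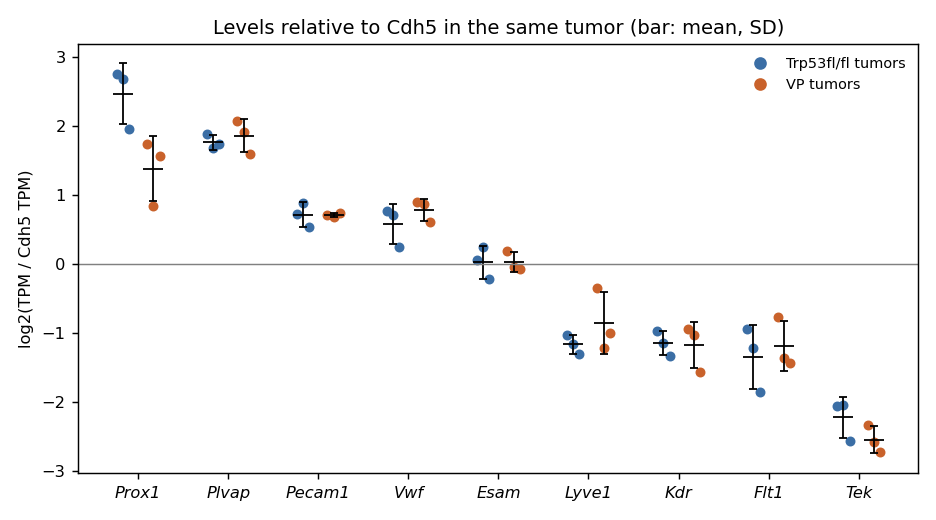
Log2 of the TPM of each gene divided by the TPM of *Cdh5* in the same tumor, without a pseudocount, for Trp53fl/fl (blue) and VP tumors (orange); bars show the mean and SD. *Prox1* is at 3.88 to 6.74 times *Cdh5* in Trp53fl/fl tumors and 1.79 to 3.32 times in VP tumors, and the ranges of the other 8 genes overlap.

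The mean of log2(TPM + 1) over the 8 blood endothelial genes was 3.85, 3.85 and 4.01 in Trp53fl/fl tumors and 4.18, 4.09 and 3.93 in VP tumors. VP replicate 3 lay below Trp53fl/fl replicate 3, and the group means of 3.90 ± 0.0903 and 4.06 ± 0.128 (SD, n = 3 each) differed by 0.16. Over the 6 tumors, which share the scaling to a common total, each gene was set against the mean of the other blood endothelial genes, as a description. Pearson's r was 0.90 for *Plvap*, 0.78 for *Kdr*, 0.76 for *Vwf* and 0.75 for *Esam*, between 0.43 and 0.50 for *Cdh5*, *Pecam1* and *Flt1*, and -0.094 for *Tek*. *Lyve1* had an r of 0.82 and *Prox1* of -0.66. After the mean of each genotype was subtracted, r was 0.67 for *Lyve1* and -0.21 for *Prox1*. It was then 0.87 for *Plvap* and for *Kdr*, 0.69 for *Vwf* and 0.60 for *Esam*. For *Cdh5*, *Pecam1* and *Flt1* it fell to 0.32, 0.13 and 0.12. *Tek* had an r of 0.70 after that step. In VP tumors it fell from replicate 1 to replicate 3 as the mean did, at 3.37, 2.97 and 2.66 TPM. In Trp53fl/fl tumors it was nearly flat, at 3.31, 3.41 and 3.32 TPM, and did not follow the mean. The coefficient of variation between tumors of a genotype had a median of 10.8% over the 10 genes in Trp53fl/fl tumors and 13.3% in VP tumors, against 15.2% and 14.3% for all genes tested.

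Genes outside the lists whose levels most resembled the mean of the 8 blood endothelial genes, at a mean of at least 5 TPM, were *Agfg2*, *Chst4*, *Fuom*, *Slco2a1*, *AI413582*, *Zfp36*, *Acy1*, *Slc5a1*, *Mansc1* and *Egr1*, with Pearson's r of 0.976 to 0.994 over 6 tumors and Spearman's rho of 0.94 to 1. *Slco2a1* encodes a prostaglandin transporter, *Slc5a1* a sodium-glucose cotransporter of gut epithelium, and *Zfp36* and *Egr1* are immediate early genes. The other 31 tested pan-endothelial genes had a median r of 0.18 with this mean, against -0.13 for all genes tested, and 6.45% of them had an r above 0.8, against 4.62%. Lists of other cells had higher medians, 0.83 for red cells, 0.72 for neutrophils, 0.69 for smooth muscle and 0.68 for enteroendocrine cells. All of these r values are descriptions over the same 6 tumors, with the genotype difference left in. The part of those cells in the endothelial values was not tested.

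A further 32 pan-endothelial genes, among them *Emcn*, *Egfl7*, *Eng*, *Tie1*, *Cldn5* and *Robo4*, summed to 409 to 479 TPM in Trp53fl/fl tumors and to 410 to 479 TPM in VP tumors, ranges that nearly coincide. *Ecscr* alone was at 97.03 to 143.99 TPM over the 6 tumors, so the sum says little about the weakly expressed genes. Of the 31 tested, 2 were higher and 1 lower at an unadjusted limma p under 0.05, none passed the adjustment, and the median log2 difference was 0.035. *Gpihbp1*, which encodes the protein that carries lipoprotein lipase across capillary endothelium, was at 5.88, 5.40 and 4.87 TPM in Trp53fl/fl tumors and at 14.33, 9.20 and 11.44 TPM in VP tumors. Its 3 VP values were all above the Trp53fl/fl values, with a log2 difference of 0.97 (standard error 0.18, unadjusted p = 0.00103, limma adjusted p = 0.157). *Aqp1*, the other higher gene, was at 35.20 to 36.28 TPM against 44.32 to 58.36 TPM (log2 difference 0.49, limma adjusted p = 0.278). *Sox18*, a transcription factor gene of endothelium that acts before *Prox1* in lymphatic development, was at 16.72, 21.37 and 14.65 TPM against 13.22, 9.85 and 12.53 TPM, a log2 difference of -0.52 (adjusted p = 0.341, limma).

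Among ligands and other receptors of the VEGF and angiopoietin systems, *Flt4* alone was without overlap. None of the 10 tested genes had an unadjusted limma p under 0.05, none passed the adjustment, and the median log2 difference was 0.096. *Vegfa*, the ligand of *Kdr* and *Flt1*, was at 33.69, 36.62 and 30.51 TPM against 48.97, 36.03 and 29.45 TPM, highest in VP replicate 1 as *Flt1* was, and otherwise overlapping (log2 difference 0.15, limma adjusted p = 0.753). *Angpt2*, the angiopoietin that loosens vessels, was at 7.55 to 8.96 TPM and 6.79 to 9.65 TPM (log2 difference 0.050, limma adjusted p = 0.916). *Angpt1*, which activates TIE2, was below 1 TPM in every tumor. *Flt4* was at 2.26, 1.83 and 3.25 TPM against 3.44, 3.34 and 3.32 TPM (log2 difference 0.36, limma adjusted p = 0.480). Among the 13 genes of tip cells and sprouting, none had an unadjusted limma p under 0.05 and none passed the adjustment, with a median log2 difference of 0.075. *Unc5b*, a netrin receptor gene, was the only one of them without overlap, at 14.20 to 15.33 TPM against 15.38 to 17.32 TPM (log2 difference 0.16, limma adjusted p = 0.572).

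**Figure D4:**
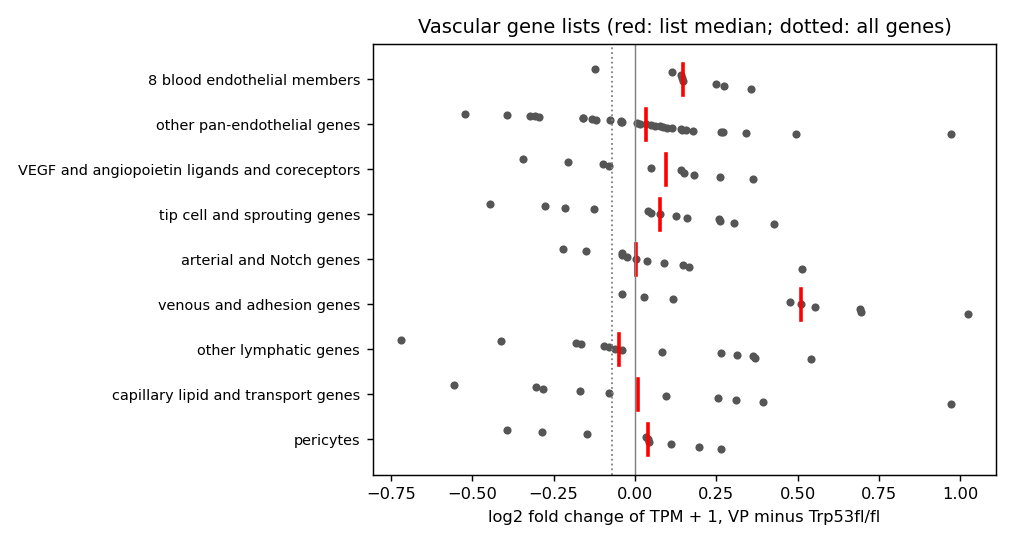
Difference in log2 of TPM + 1, VP minus Trp53fl/fl, for each tested gene (points) of 9 vascular lists, with the list median in red and the median of all genes tested dotted. The venous and adhesion genes have a median of 0.51, and the medians of the other 8 lists lie between -0.050 and 0.15.

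The venous and adhesion genes had the highest median of the vascular lists, 0.51, with 8 of 9 tested genes positive, 2 higher at an unadjusted limma p under 0.05 and none past the adjustment. *Ackr1*, the chemokine-binding receptor of venules, was at 4.23, 5.09 and 4.59 TPM in Trp53fl/fl tumors and at 8.30, 9.19 and 6.98 TPM in VP tumors, a log2 difference of 0.70 (standard error 0.16, unadjusted p = 0.00284, limma adjusted p = 0.244). Each VP tumor was above each Trp53fl/fl tumor. *Lrg1*, which endothelium, epithelium and neutrophils all produce, was at 79.79 to 241.15 TPM against 265.46 to 397.32 TPM (log2 difference 1.02, limma adjusted p = 0.366). *Selp*, *Icam1* and *Vcam1*, adhesion molecules that capture leukocytes, had log2 differences of 0.51, 0.55 and 0.48 with overlap between the genotypes. *Bst1* had 0.69, also with overlap. *Nr2f2*, *Ephb4* and *Madcam1* of the same list had only -0.040, 0.027 and 0.12, with overlap. The list median therefore does not hold for each of its genes. The neutrophil list was also higher in VP tumors, with sums of 571 to 1183 TPM in Trp53fl/fl tumors and 1658 to 2745 TPM in VP tumors. Most of each sum was *S100a8*, *S100a9* and *Lcn2*, so the sums say little about its weakly expressed genes. All 13 tested genes of that list were positive, 10 at an unadjusted limma p under 0.05 and 1 past the adjustment, *Ngp*, a granule protein gene (log2 difference 4.37, limma adjusted p = 0.00804). *Retnlg*, another neutrophil gene, had a log2 difference of 2.5 (adjusted p = 0.0521, limma). Of the 13 genes, 10 were without overlap, while *Csf3r*, *Ly6g* and *Lcn2* overlapped between the genotypes. Their log2 differences were 0.074, 0.21 and 0.82. Among VP tumors, replicate 3 had the lowest neutrophil sum. *Selp* and *Icam1* were highest in that tumor, while *Ackr1*, *Lrg1* and *Vcam1* had their lowest VP values there. The part of neutrophils in the values of the venous genes was not tested.

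Transcripts of red cells, which are carried in the vessels, also differed between the tumors. The 7 genes summed to 168, 165 and 484 TPM in Trp53fl/fl tumors and to 712, 993 and 648 TPM in VP tumors, with each VP tumor above each Trp53fl/fl tumor. All 4 tested genes were higher at an unadjusted limma p under 0.05 and none passed the adjustment. *Hbb-bs* and *Hba-a1*, the hemoglobin chain genes of largest difference, had log2 differences of 1.78 and 1.62 (limma adjusted p = 0.246 and 0.287), and each has a near-identical copy with which its reads can be exchanged. Trp53fl/fl replicate 3, the tumor of its group with the highest red cell sum, also had the highest *Cdh5*, *Pecam1*, *Esam*, *Kdr*, *Plvap* and *Lyve1* of that group, and the lowest *Flt1* and *Prox1*. Among VP tumors, replicate 2 had the highest red cell sum and the highest value for *Cdh5* and *Vwf* only, while *Esam*, *Kdr*, *Flt1*, *Tek*, *Plvap*, *Lyve1* and *Prox1* were highest in replicate 1. The part of blood left in the tissue in the endothelial values was not tested.

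**Figure D5:**
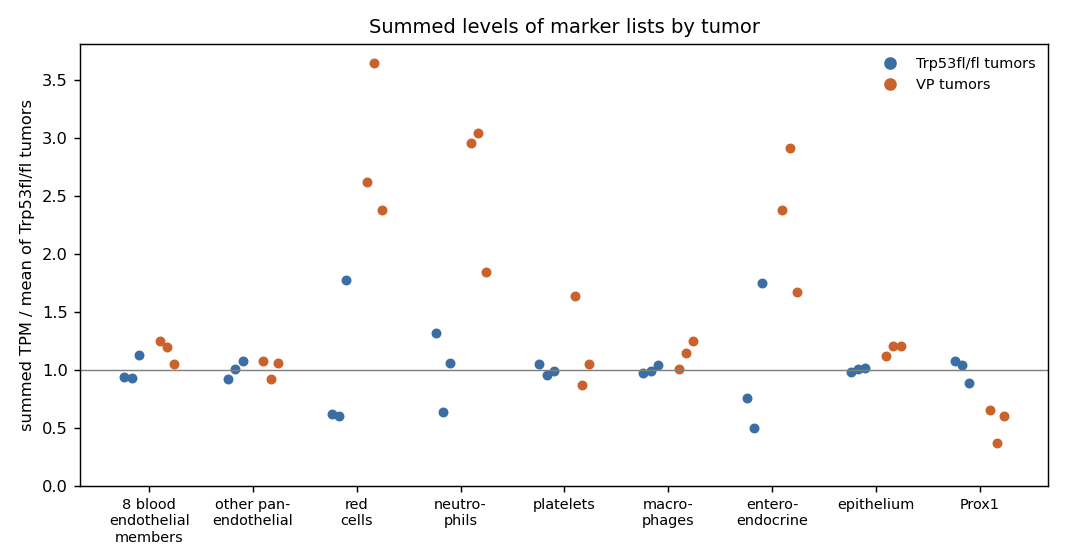
Summed TPM of marker lists in each tumor, divided by the mean of the 3 Trp53fl/fl tumors, for Trp53fl/fl (blue) and VP tumors (orange), with *Prox1* alone at the right. Sums of other pan-endothelial genes overlap (409 to 479 against 410 to 479 TPM), red cell and neutrophil sums are higher in every VP tumor, and *Prox1* is lower in every VP tumor.

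Arterial and Notch genes had a median log2 difference of 0.0030, with 1 of 11 tested genes higher at an unadjusted limma p under 0.05 and none past the adjustment. That gene was *Notch4*, the Notch receptor of endothelium, at 5.70, 6.64 and 7.23 TPM against 10.89, 8.35 and 10 TPM, without overlap (log2 difference 0.51, limma adjusted p = 0.317). Capillary lipid and transport genes had a median of 0.0088, with *Gpihbp1* the 1 of 10 with an unadjusted limma p under 0.05, and none passed the adjustment. *Slc9a3r2*, a scaffold protein gene of that list, was without overlap in the lower direction (log2 difference -0.17, limma adjusted p = 0.567). Pericyte genes, which mark the cells that wrap capillaries, had 9 tested members with a median of 0.041, none at an unadjusted limma p under 0.05, and sums of 109 to 119 TPM against 89.8 to 121 TPM.

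Other lymphatic genes went both ways. Of 14 tested, 6 were positive and 8 negative, with 1 higher and 2 lower at an unadjusted limma p under 0.05, none past the adjustment and a median of -0.050. *Ccl21b*, a chemokine gene of lymphatic vessels, was at 9.88, 10.59 and 11.82 TPM in Trp53fl/fl tumors and at 13.85, 17.31 and 17.28 TPM in VP tumors (log2 difference 0.54, limma adjusted p = 0.279), but its near-identical copy *Ccl21a* overlapped between the genotypes at 38.20 to 77.42 TPM, and reads can be divided between them. *Foxc2*, a transcription factor gene of lymphatic valves, was at 4.43, 3.09 and 5.79 TPM against 1.76, 2.11 and 2.94 TPM (log2 difference -0.72, limma adjusted p = 0.340). *Flt4* was also higher, and *Gja1* and *Itga9* lower, in every VP tumor. The 15 genes summed to 200 to 252 TPM in Trp53fl/fl tumors and to 195 to 261 TPM in VP tumors, with overlap. *Ccl21a*, *Gja1*, *Stab1* and *Pdpn* had the highest means of the list in both groups, so the sum says little about its weakly expressed genes.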

How the data were processed

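RNA-seq was analysed for 3 Trp53fl/fl and 3 VP tumors. Per the labels and the study's methods, poly(A) RNA was sequenced from both ends, and the submitters' processing notes name HISAT2, StringTie and the build mm9, without versions. The authors deposited TPM per gene with 2 decimals, not pooled. TPM keep no read counts, so depth and counting error are unknown; of 54167 gene IDs, 52093 are in GENCODE M21 (GRCm38), and no coordinates of genes are given because the builds differ. Columns were assigned through the codes in the labels, and no pair of columns was identical. The labels do not say that same-numbered tumors are related.

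log2(TPM + 1) was fitted, for the 15117 genes that reached 1 TPM in 3 or more tumors, with limma 3.58.1 in R 4.3.3 (empirical Bayes with trend, Benjamini-Hochberg adjustment over all genes). Fold changes on this scale understate those of weakly expressed genes. The fit was tested on simulated data. Ratios and orders were tested by exact permutation in scipy 1.17.1. Whether replicates are separate animals is not in the labels, so p-values measure the spread between these tumors. The 10 genes and the 21 other gene lists were chosen with earlier results of these data known, 1 of the lists (epithelial Wnt targets) after the values were seen here. Named genes are the 10 markers, *Trp53*, in each list the genes past the adjustment and the 2 of largest change without overlap, and the 10 most alike; others are named as examples of their list, chosen after their values were seen. Alternatives were a pseudocount of 0.1, no filter, quantile normalization, rescaling by the median of ratios, only genes averaging 5 TPM or more, a replicate block, no trend, and each tumor left out.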

Additional observations from a re-analysis of the deposited data

How the results depend on the processing

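The log2 differences of all 10 genes kept their sign under all alternatives in which each was tested, and none reached an adjusted p under 0.05. *Tek* was not tested at a mean of at least 5 TPM. The 25 genes with a limma adjusted p under 0.05 became 7 without the filter, where more genes were tested, and 6 to 28 with a tumor left out. With the replicate number as a block 10 were called. Same-numbered tumors did not deviate together (r of -0.052 to 0.019 across genes), which cannot exclude that they are related. The block changed no call of the 10 genes. Calls split into 12 higher and 13 lower, and with median-of-ratios rescaling into 12 and 8. Relative to *Cdh5*, the differences ran, with a tumor left out, from -0.0017 to 0.23 for *Plvap*, -0.091 to 0.076 for *Pecam1*, -0.12 to 0.10 for *Esam*, -0.14 to 0.13 for *Kdr* and -0.11 to 0.30 for *Flt1*, and without reversal from -1.30 to -0.80 for *Prox1*, -0.43 to -0.19 for *Tek*, 0.044 to 0.44 for *Lyve1* and 0.052 to 0.30 for *Vwf*. The difference of the blood endothelial mean ran from 0.11 to 0.23. Causes were not tested. Depth is unknown, so values near 1 TPM, such as those of *Stab2* and *Angpt1*, carry no error of their own.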

Other observations

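Among the other stromal cells, fibroblast genes summed to 921 to 1047 TPM in Trp53fl/fl tumors and 807 to 1134 TPM in VP tumors, with 2 of 10 tested genes lower at an unadjusted limma p under 0.05 and none past the adjustment. *Lum*, a proteoglycan gene, and *Pdgfra*, a growth factor receptor of fibroblasts, were lower in every VP tumor, with log2 differences of -0.57 and -0.56 (limma adjusted p = 0.313 and 0.306). Smooth muscle genes varied widely, from 421 to 1363 TPM summed over 8 genes, both extremes being VP tumors, and none had an unadjusted limma p under 0.05.

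T cell genes were negative for 6 of 7 tested, while of all genes tested 9187 of 15117 were negative. *Cd3g*, a subunit of the T cell receptor complex, was at 6.59 to 7.91 TPM against 2.95 to 6.43 TPM (log2 difference -0.57, limma adjusted p = 0.400). The 6 tested genes of B and plasma cells, 3 of enteric neurons and glia and 2 of adipocytes had median log2 differences of 0.045, 0.20 and 0.38, and none of them or of the T cell genes had an unadjusted limma p under 0.05.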
